A study of Mus musculus with 16 samples.

Results

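Pancreata of Pdx1 heterozygous mouse embryos were compared with pancreata of Oc1 heterozygous embryos by RNA sequencing at embryonic day 15.5. The libraries were chosen by the genotype in their labels, and 7 of the 16 libraries of the series belong to this contrast. There were 4 Pdx1 heterozygous libraries, which carry a lacZ allele at Pdx1 (Pdx1LacZ/+), and 3 Oc1 heterozygous libraries (Oc1+/-). In each genotype 1 copy of the named gene is altered and the other is intact. A further 4 control libraries serve below only to show on which side of control each heterozygote stood, and 5 double heterozygous libraries (Pdx1LacZ/+;Oc1+/-) were not described. All embryos were of a mixed strain background, and the labels do not say whether pancreata were pooled. Nor do they say whether libraries came from different litters, and p-values can then cover no more than the variation among the sequenced samples, which may be technical. The labels name the tissue as pancreata and the source as pancreatic progenitors. High levels of acinar and islet transcripts fit the tissue label: the mean over all libraries in the authors' deposited table was 13.97 log2 CPM (read counts scaled to library size) for the lipase-related gene Pnliprp1 and 10.09 log2 CPM for glucagon (Gcg).

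Pdx1 is a homeodomain transcription factor that is needed for the pancreas to form and that activates insulin and other beta cell genes. Oc1, also called HNF6, is a Onecut family transcription factor found in progenitors and later in ducts. It helps to turn on Neurog3, the factor that commits progenitors to the endocrine lineage. At this stage of mouse development acinar cells begin to fill with digestive enzymes, while endocrine progenitors leave the epithelium and form hormone cells. The study asks how both factors together drive the endocrine program. Setting one single heterozygote against the other asks where the loss of a copy of either gene leaves the organ in a different state.

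The values are those of the authors' own edgeR comparison, with p-values adjusted by Benjamini-Hochberg over 22869 genes. A log2 fold change above 0 means a higher level in Pdx1 heterozygous pancreata. Calls required an adjusted p under 0.05 together with a difference of at least 1.5-fold. The authors' table lists 2283 genes, those that passed an adjusted p of 0.1 with at least this fold in some comparison, and an unlisted gene is one that did not reach this in any of them. Since listing required a difference somewhere, medians over listed members describe these genes and test nothing. Counts of list members at an unadjusted p, or at the adjusted p alone, cover listed members only and are minimum counts. Values of single libraries and their depth were not analysed here, so no spread per group can be given beside a fold change. In whole pancreata, fewer cells of a type and less RNA per cell cannot be told apart.

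Of the 31 gene lists examined, acinar enzymes had the largest share of members called, and promoter sequences of 4 exocrine or ER genes are shown because they carry, in capitals, letters that recur among the members that differed. Cela2a and Prss2 encode digestive proteases of acinar cells, an elastase and a trypsin. Their capitals mark the E-box form CACCTG, written CAGGTG where it lies on the opposite strand, and TGGGAA, letters of the element bound by the acinar transcription factor complex PTF1. Derl3 and Creld2 encode proteins of the endoplasmic reticulum (ER) that handle misfolded protein. Their capitals mark both ends of the ER stress element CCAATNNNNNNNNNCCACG, which here reads as its complement on the opposite strand. Each window runs from 250 bases before to 50 bases after the start of the gene, 5′ to 3′ on the strand of the gene, from RefSeq on build GRCm38.p6: Cela2a at chr4:141825956-141826255 on the minus strand, Prss2 at chr6:41521526-41521825, Derl3 at chr10:75893148-75893447 and Creld2 at chr15:88819396-88819695, all 3 on the plus strand.
Cela2a: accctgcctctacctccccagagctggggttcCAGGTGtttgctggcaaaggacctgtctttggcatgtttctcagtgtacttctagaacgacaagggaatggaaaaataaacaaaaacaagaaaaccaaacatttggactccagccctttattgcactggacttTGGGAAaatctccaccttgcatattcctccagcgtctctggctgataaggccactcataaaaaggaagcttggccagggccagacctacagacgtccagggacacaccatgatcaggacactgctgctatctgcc
Prss2: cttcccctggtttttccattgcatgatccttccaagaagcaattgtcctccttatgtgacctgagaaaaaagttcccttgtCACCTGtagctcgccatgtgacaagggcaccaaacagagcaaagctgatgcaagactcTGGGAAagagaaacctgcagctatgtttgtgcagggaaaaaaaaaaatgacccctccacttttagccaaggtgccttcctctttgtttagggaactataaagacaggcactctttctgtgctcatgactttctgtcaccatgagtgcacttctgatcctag
Derl3: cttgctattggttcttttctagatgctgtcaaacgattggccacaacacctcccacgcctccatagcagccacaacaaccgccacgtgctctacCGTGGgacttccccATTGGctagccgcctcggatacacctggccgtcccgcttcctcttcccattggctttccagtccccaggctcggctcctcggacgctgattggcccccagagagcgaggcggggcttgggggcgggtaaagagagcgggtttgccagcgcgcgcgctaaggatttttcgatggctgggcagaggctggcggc
Creld2: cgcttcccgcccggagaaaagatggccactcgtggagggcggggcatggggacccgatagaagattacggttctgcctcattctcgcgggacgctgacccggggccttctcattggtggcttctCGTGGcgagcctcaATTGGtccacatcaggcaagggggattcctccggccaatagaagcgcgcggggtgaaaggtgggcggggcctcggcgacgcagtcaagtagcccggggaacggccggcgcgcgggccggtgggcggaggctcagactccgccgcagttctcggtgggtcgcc

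Of the 22869 counted genes, 504 were higher in Pdx1 than in Oc1 heterozygous pancreata (2.20%) and 562 were lower (2.46%), 1066 in either direction (4.66%; edgeR, adjusted p). The adjusted p alone was passed by at least 2556 genes (11.2%), as ranks in the authors' deposited table imply. Genes called lower had a median log2 fold change of -0.92. The same genes stood at a median of 0.14 in Pdx1 heterozygotes and 1.03 in Oc1 heterozygotes, each against the same control libraries in the authors' deposited table. Genes called higher had a median of 0.94, with medians of 0.14 in Pdx1 heterozygotes and -0.79 in Oc1 heterozygotes against control in the authors' deposited table. Over all listed genes the median size of the change against control was 0.28 on the log2 scale in Pdx1 heterozygotes and 0.82 in Oc1 heterozygotes in the authors' deposited table. Against control, 47 genes were higher and 10 lower in Pdx1 heterozygotes (0.206% and 0.0437%), and 836 were higher and 592 lower in Oc1 heterozygotes (3.66% and 2.59%). Both of these comparisons use the same controls, and each shares its heterozygous libraries with the contrast. A mean level under 1 log2 CPM was found for 143 of the genes called higher and 82 of those called lower, and the fitted fold changes of such genes rest on few reads.

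**Figure D1:**
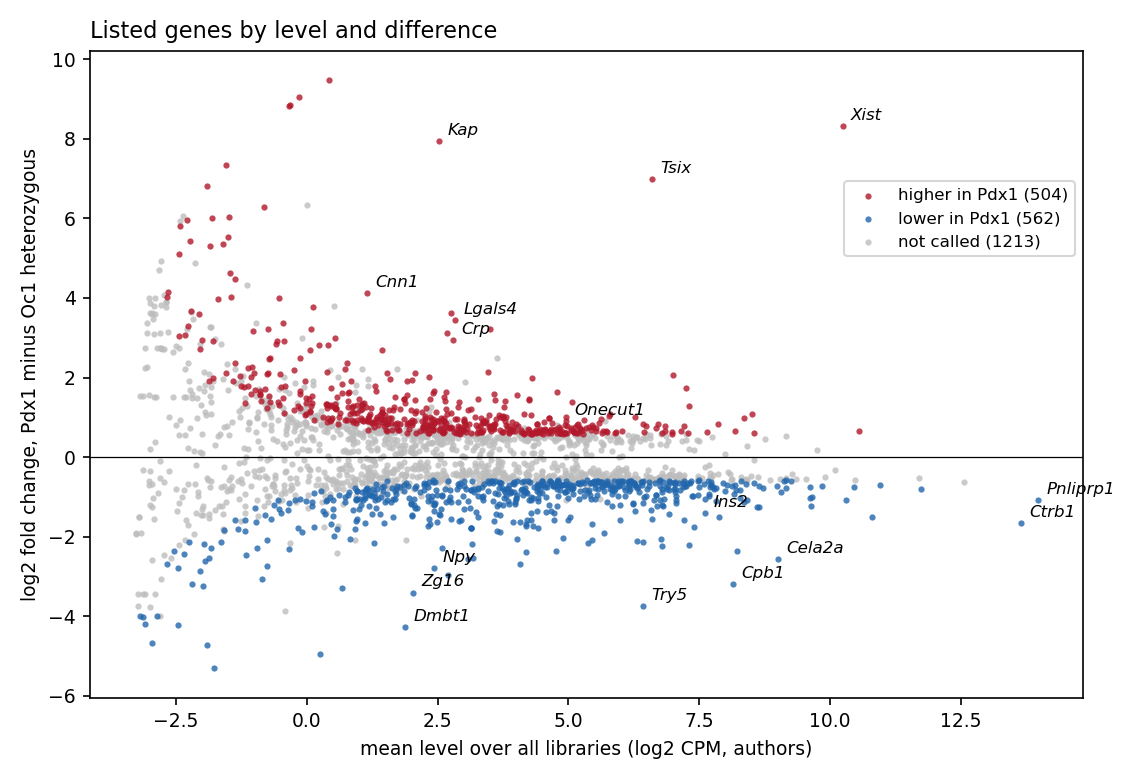
Each point is a listed gene, placed by its mean level over all libraries (log2 CPM, x axis) and its log2 fold change, Pdx1 minus Oc1 heterozygous (y axis), with the 504 genes called higher in red, the 562 called lower in blue and the others in grey. Acinar enzyme genes such as Cpb1 and Try5 combine a high level with a fold change under -3, while most of the largest positive values belong to genes of low level.

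The targeted genes were examined first. Onecut1, the gene of Oc1, was higher in Pdx1 than in Oc1 heterozygous pancreata (log2 fold change 0.90, 1.87-fold, adjusted p = 0.00191, edgeR, the authors' deposited table). It stood at 0.42 in Pdx1 heterozygotes and -0.48 in Oc1 heterozygotes against control, and neither passed (adjusted p = 0.828 and 0.146, edgeR, the authors' deposited table). Pdx1 was lower in Pdx1 than in Oc1 heterozygous pancreata by the adjusted p but under the fold minimum (-0.36, 1.28-fold, adjusted p = 0.0151, edgeR, the authors' deposited table). Against control, Pdx1 stood at -0.47 in Pdx1 heterozygotes and -0.12 in Oc1 heterozygotes (adjusted p = 0.00427 and 0.586, edgeR, the authors' deposited table). The direction of both genes was thus that of their labels. Of the Onecut1 paralogs, Onecut2 did not pass (0.66, adjusted p = 0.507, edgeR, the authors' deposited table) and Onecut3 is not listed, so 1 of 4 genes of this list was called.

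Most acinar digestive enzymes and secreted proteins were lower in Pdx1 than in Oc1 heterozygous pancreata. Of 43 counted members, 29 were lower (67.4%, against 2.46% of all genes), none was higher, and 14 did not pass. At an unadjusted p under 0.05 in edgeR the counts were 31 lower and 0 higher among the 36 listed. The 36 listed members had a median log2 fold change of -1.58 in the authors' deposited table, against -0.07 over all listed genes. These 36 members stood at a median of 0.91 in Pdx1 heterozygotes and 2.37 in Oc1 heterozygotes against control in the authors' deposited table. Against control, 3 members were higher in Pdx1 heterozygotes and 33 in Oc1 heterozygotes (0.206% and 3.66% of all genes were higher). The low level in Pdx1 heterozygotes was therefore low relative to Oc1 heterozygotes and not relative to control.

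The members called lower differed widely in size. Dmbt1, a secreted scavenger-type glycoprotein, had a log2 fold change of -4.28 (19.5-fold, adjusted p = 1.21e-12, edgeR, the authors' deposited table). Cpb1, which encodes a pancreatic carboxypeptidase, stood at -3.21 (9.22-fold, adjusted p = 1.26e-05, edgeR, the authors' deposited table). Its values against control in the authors' deposited table were 1.28 in Pdx1 heterozygotes and 4.49 in Oc1 heterozygotes (adjusted p = 0.65 and 6.06e-10). The trypsinogens Try5 and Try4 stood at -3.74 and -2.97, and Zg16, a zymogen granule protein, at -3.41 (adjusted p = 2.8e-07, 0.000938 and 0.000264, edgeR, the authors' deposited table). Cela2a, one of the genes whose promoter is shown, stood at -2.57 and Prss2 at -2.07 (adjusted p = 0.000265 and 7.92e-06, edgeR, the authors' deposited table). Klk1, a tissue kallikrein, stood at -2.55 (adjusted p = 0.00791, edgeR, the authors' deposited table). The trypsinogens are near-identical genes among which the authors' counting may have split reads, so their single values are uncertain.

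Sizes also varied among acinar genes with many reads. Pnliprp1, with the highest mean CPM of all listed genes, was 2.11-fold lower (log2 fold change -1.08, adjusted p = 0.0136, edgeR, the authors' deposited table), at 1.09 in Pdx1 heterozygotes and 2.17 in Oc1 heterozygotes against control. The chymotrypsinogen Ctrb1 was 3.17-fold lower (-1.66, adjusted p = 0.000275, edgeR, the authors' deposited table). Cpa1, a carboxypeptidase that also marks early multipotent tips, stood at -0.64 and the amylase Amy2b at -0.07, and neither passed (adjusted p = 0.105 and 1, edgeR, the authors' deposited table). At the mean level over all libraries the 36 listed members made up 4.49% of counted reads. Amounts per cell were not measured.

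Some transcription factors of acinar cells were lower as well. Of 8 counted members, 3 were lower (37.5%, against 2.46% of all genes) and none higher, and 4 were listed. At an unadjusted p under 0.05 in edgeR the counts were 4 lower and 0 higher. Rbpjl and Ptf1a, which form the PTF1 complex that activates digestive enzyme genes, stood at -1.07 and -0.83 (adjusted p = 0.00091 and 0.00039, edgeR, the authors' deposited table). Bhlha15, known as Mist1, which organises the secretory apparatus, stood at -0.69 (adjusted p = 0.00381, edgeR, the authors' deposited table). Xbp1, a regulator of the secretory ER, stood at -0.58 with adjusted p = 0.000448 by edgeR in the authors' deposited table, just short of the required fold (0.585 on the log2 scale). Against control, Rbpjl stood at 0.46 in Pdx1 heterozygotes and 1.53 in Oc1 heterozygotes (adjusted p = 0.905 and 2.33e-07, edgeR, the authors' deposited table). Ptf1a stood at 0.01 in Pdx1 heterozygotes and 0.84 in Oc1 heterozygotes (adjusted p = 1 and 0.000203, edgeR, the authors' deposited table).

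**Figure D2:**
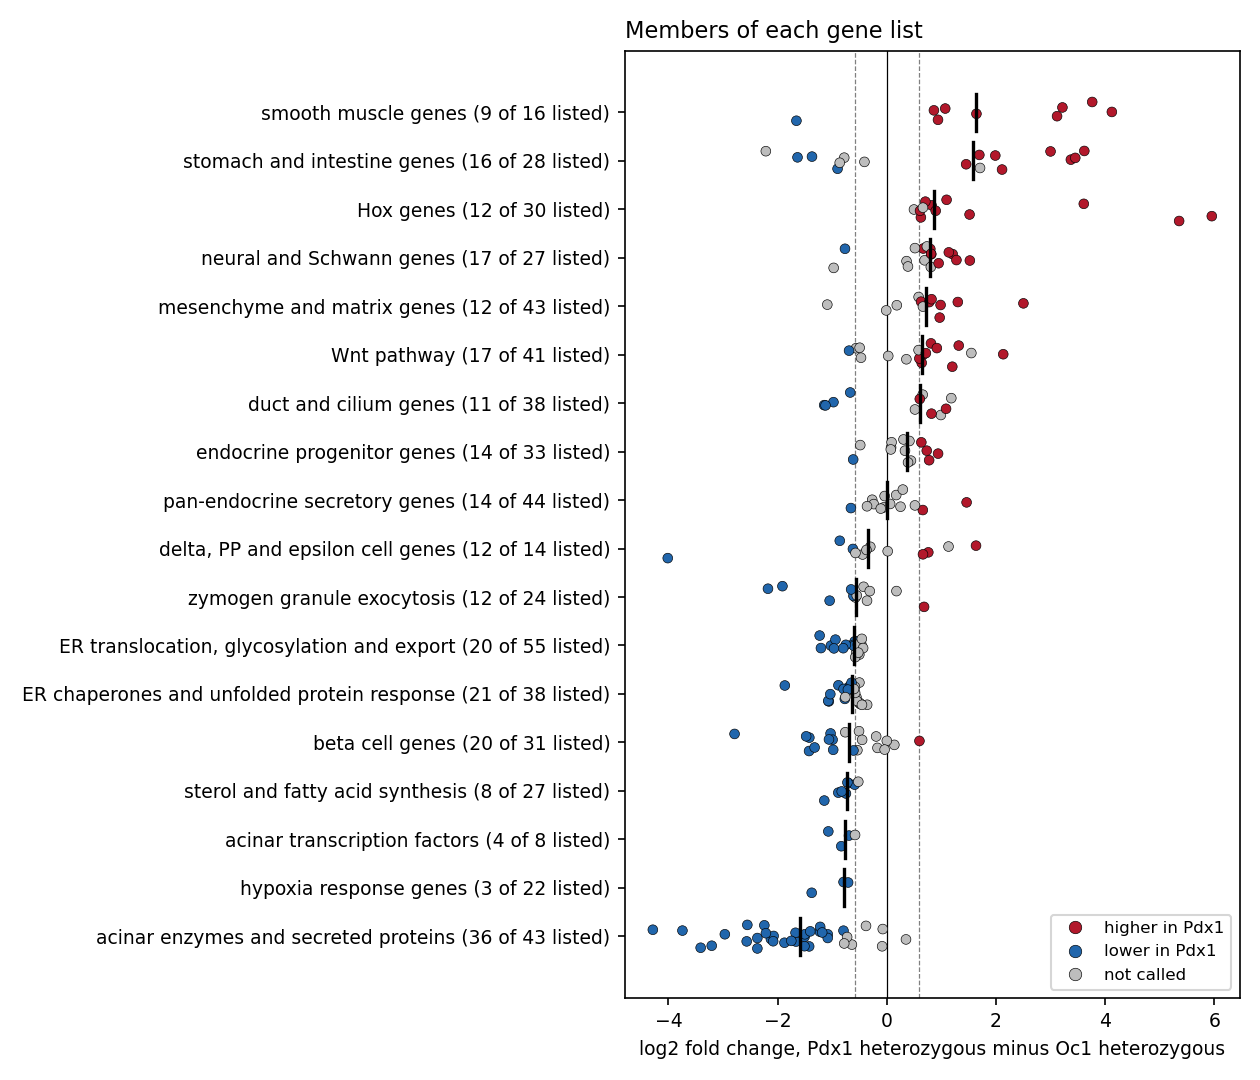
Each point is a listed member of the gene list named at left, placed by its log2 fold change, Pdx1 minus Oc1 heterozygous, with members called higher in red, called lower in blue and others in grey, black bars at the list medians, and dashed lines at the fold minimum of 1.5. Among the lists drawn, the acinar enzyme list lies farthest to the left with a median of -1.58, and the smooth muscle list farthest to the right with a median of 1.64. Other lists, such as the sex-linked genes, are not drawn.

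Some genes of the ER machinery that serves secretion were lower too. Of 38 ER chaperones and genes of the unfolded protein response, 10 were lower (26.3%, against 2.46% of all genes) and none higher. By the adjusted p alone 19 were lower. At an unadjusted p under 0.05 in edgeR 21 were lower and 0 higher among those listed. The 21 listed members had a median of -0.65, at 0.20 in Pdx1 heterozygotes and 0.84 in Oc1 heterozygotes against control in the authors' deposited table. Derl3, a component of ER-associated degradation that is abundant in secretory cells, stood at -1.87 (3.65-fold, adjusted p = 1.81e-09, edgeR, the authors' deposited table). Herpud1 and Edem2, which act in the same degradation, stood at -1.07 and -1.03, and Sdf2l1, a chaperone cofactor, at -1.06 (adjusted p = 2.8e-07, 9.12e-05 and 8.31e-07, edgeR, the authors' deposited table). P4hb, a protein disulfide isomerase and the listed member with the most reads, stood at -0.70 and Creld2 at -0.79 (adjusted p = 0.000494 and 5.93e-08, edgeR, the authors' deposited table).

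Of 55 genes of ER translocation, glycosylation and export, 11 were lower (against 2.46% of all genes) and none higher (against 2.20%). By the adjusted p alone 20 were lower, all 20 that are listed. At an unadjusted p under 0.05 in edgeR 20 were lower and 0 higher. Tmed6 and Tmed3, cargo receptors of the early secretory pathway, stood at -1.23 and -0.97 (adjusted p = 1.12e-06 and 2.27e-10, edgeR, the authors' deposited table). Nucb2, a calcium-binding protein that is the precursor of nesfatin, stood at -1.21 and Sec11c, a signal peptidase subunit, at -1.02 (adjusted p = 4.55e-09 and 2.96e-06, edgeR, the authors' deposited table). The translocon-associated Ssr1, the listed member with the most reads, stood at -0.55 with adjusted p = 0.000633 by edgeR in the authors' deposited table, below the required fold.

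Of 24 genes of zymogen granule exocytosis, 5 were lower (20.8%, against 2.46% of all genes) and 1 was higher (4.17%, against 2.20%). The water channels Aqp12 and Aqp8 of acinar cells stood at -2.18 and -1.91 (adjusted p = 0.00562 and 0.00584, edgeR, the authors' deposited table). Rab3d, a small GTPase on zymogen granules, stood at -1.05, and Sytl2, a granule docking protein, was higher at 0.68 (adjusted p = 3.29e-05 and 0.0199, edgeR, the authors' deposited table). The cholecystokinin receptor Cckar, the listed member with the most reads, did not pass (-0.42, adjusted p = 0.214, edgeR, the authors' deposited table). Of 27 genes of sterol and fatty acid synthesis, 7 were lower (25.9%, against 2.46% of all genes) and none higher. An unadjusted p under 0.05 in edgeR gave 8 lower and 0 higher among those listed. Insig1, an ER sensor of sterol, stood at -1.14 and Fdps, an enzyme of the mevalonate pathway, at -0.89 (adjusted p = 2.71e-10 and 1.31e-05, edgeR, the authors' deposited table). The desaturase Scd2 stood at -0.75 (adjusted p = 2.59e-05, edgeR, the authors' deposited table).

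The promoter letters shown above were counted on both strands over all genes with a RefSeq promoter in the table. A promoter was found for 21 of the 29 acinar members called lower and for 9 of the 10 ER chaperone members. CACCTG was present in 14 of the 21 acinar promoters (66.7%), against 22.6% of all 27025 genes, 34.8% of all genes called lower and 21.7% of those called higher. TGGGAA was also present in 14 of 21 (66.7%), against 28.3% of all genes, 30.4% of those called lower and 33.5% of those called higher. The Onecut core ATCAAT was present in 4 of 21, in Amy1, Amy2a5, Prss3 and Reg1 (19%). It was present in 8.63% of all genes, 8.95% of those called lower and 7.76% of those called higher. The other Onecut core, ATCGAT, was present in 0 of 21, against 1.02% of all genes. The homeodomain core TAATTA was present in none of the 21, against 6.12% of all genes. CACCTG is also 1 form of the general E-box CANNTG, which 19 of the 21 and 75% of all genes hold. The full ER stress element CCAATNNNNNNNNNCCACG was present in the ER promoters of Derl3 and Creld2, 2 of 9, against 0.137% of all genes. Its shorter part CCACG was present in 9 of 9, against 35.5% of all genes, 46.5% of those called lower and 42.2% of those called higher. CACCTG and the full ER stress element were chosen after values were seen, so their shares are a description and test nothing. All counts are matches of letters in the mouse reference, not sites shown to be bound.

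Some beta cell genes were lower in Pdx1 than in Oc1 heterozygous pancreata, and here the medians of the heterozygotes lay on opposite sides of control. Of 31 members, 10 were lower (32.3%, against 2.46% of all genes) and 1 was higher (3.23%, against 2.20%), and 20 did not pass. The 20 listed members had a median of -0.69, at -0.27 in Pdx1 heterozygotes and 0.36 in Oc1 heterozygotes against control in the authors' deposited table. Against control, 1 member was lower and 1 higher in Pdx1 heterozygotes, and 6 were higher in Oc1 heterozygotes. The other members therefore did not pass against control in Pdx1 heterozygotes.

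The insulin genes stood on opposite sides of control, but only their higher level in Oc1 heterozygotes passed against control. Ins2 was 2.67-fold lower in Pdx1 than in Oc1 heterozygous pancreata (log2 fold change -1.42, adjusted p = 1.95e-08, edgeR, the authors' deposited table). Against control, Ins2 stood at -0.52 in Pdx1 heterozygotes and 0.90 in Oc1 heterozygotes (adjusted p = 0.527 and 0.000556, edgeR, the authors' deposited table). Ins1 also stood at -1.42 (2.68-fold, adjusted p = 8.68e-07, edgeR, the authors' deposited table), at -0.50 in Pdx1 heterozygotes and 0.93 in Oc1 heterozygotes against control (adjusted p = 0.763 and 0.00192). Ins1 and Ins2 are close paralogs, so reads may be shared between them. Iapp, islet amyloid polypeptide, which is released together with insulin, stood at -1.32 (adjusted p = 4.49e-07, edgeR, the authors' deposited table), at -0.60 in Pdx1 heterozygotes and 0.72 in Oc1 heterozygotes against control.

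Other beta cell members differed in both directions. Npy, a neuropeptide made by immature beta cells, had the largest difference of the list, 6.9-fold (-2.79, adjusted p = 1.01e-09, edgeR, the authors' deposited table). It was lower than control in Pdx1 heterozygotes, at -2.0, and stood at 0.79 in Oc1 heterozygotes (adjusted p = 0.000278 and 0.149, edgeR, the authors' deposited table). Glp1r, the receptor for the incretin GLP-1, stood at -1.48 and Mafa, an activator of insulin transcription, at -1.03 (adjusted p = 0.00229 and 0.00939, edgeR, the authors' deposited table). Kcnj11, the pore of the beta cell potassium channel, stood at -0.98 (adjusted p = 1.16e-13, edgeR, the authors' deposited table). Against control Kcnj11 stood at -0.56 in Pdx1 heterozygotes and 0.42 in Oc1 heterozygotes, both past the adjusted p (0.000533 and 0.00285, edgeR, the authors' deposited table) and under the fold minimum. Slc2a2, the glucose transporter GLUT2, was the 1 member that was higher (0.60, 1.51-fold, adjusted p = 0.0234, edgeR, the authors' deposited table). It stood at 0.70 in Pdx1 heterozygotes and 0.11 in Oc1 heterozygotes against control (adjusted p = 0.0321 and 0.893, edgeR, the authors' deposited table).

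Few endocrine progenitor genes passed. Of 33 members, 4 were higher in Pdx1 than in Oc1 heterozygous pancreata (12.1%, against 2.20% of all genes), 1 was lower (3.03%, against 2.46%) and 28 did not pass. The 14 listed members had a median of 0.36, at -0.20 in Pdx1 heterozygotes and -0.60 in Oc1 heterozygotes against control in the authors' deposited table. Pax4, a factor of beta and delta cell precursors downstream of Neurog3, stood at 0.94 (adjusted p = 0.001, edgeR, the authors' deposited table). Its values against control in the authors' deposited table were 0.01 in Pdx1 heterozygotes and -0.93 in Oc1 heterozygotes (adjusted p = 1 and 0.000787). Sox4 and Sox11, related SoxC factors, stood at 0.78 and 0.73 (adjusted p = 3.05e-06 and 0.000697, edgeR, the authors' deposited table). Gadd45a, a growth arrest gene, stood at 0.63 and Nkx6-2, a homeodomain factor, was lower at -0.62 (adjusted p = 0.00636 and 0.0335, edgeR, the authors' deposited table). Neurog3 itself did not pass (0.33, adjusted p = 0.243, edgeR, the authors' deposited table). It stood at -0.32 in Pdx1 heterozygotes and -0.65 in Oc1 heterozygotes against control, with adjusted p = 0.853 and 0.00269 by edgeR in the authors' deposited table. Its target Neurod1 stood at 0.41 with adjusted p = 0.017 by edgeR in the authors' deposited table, below the required fold.

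**Figure D3:**
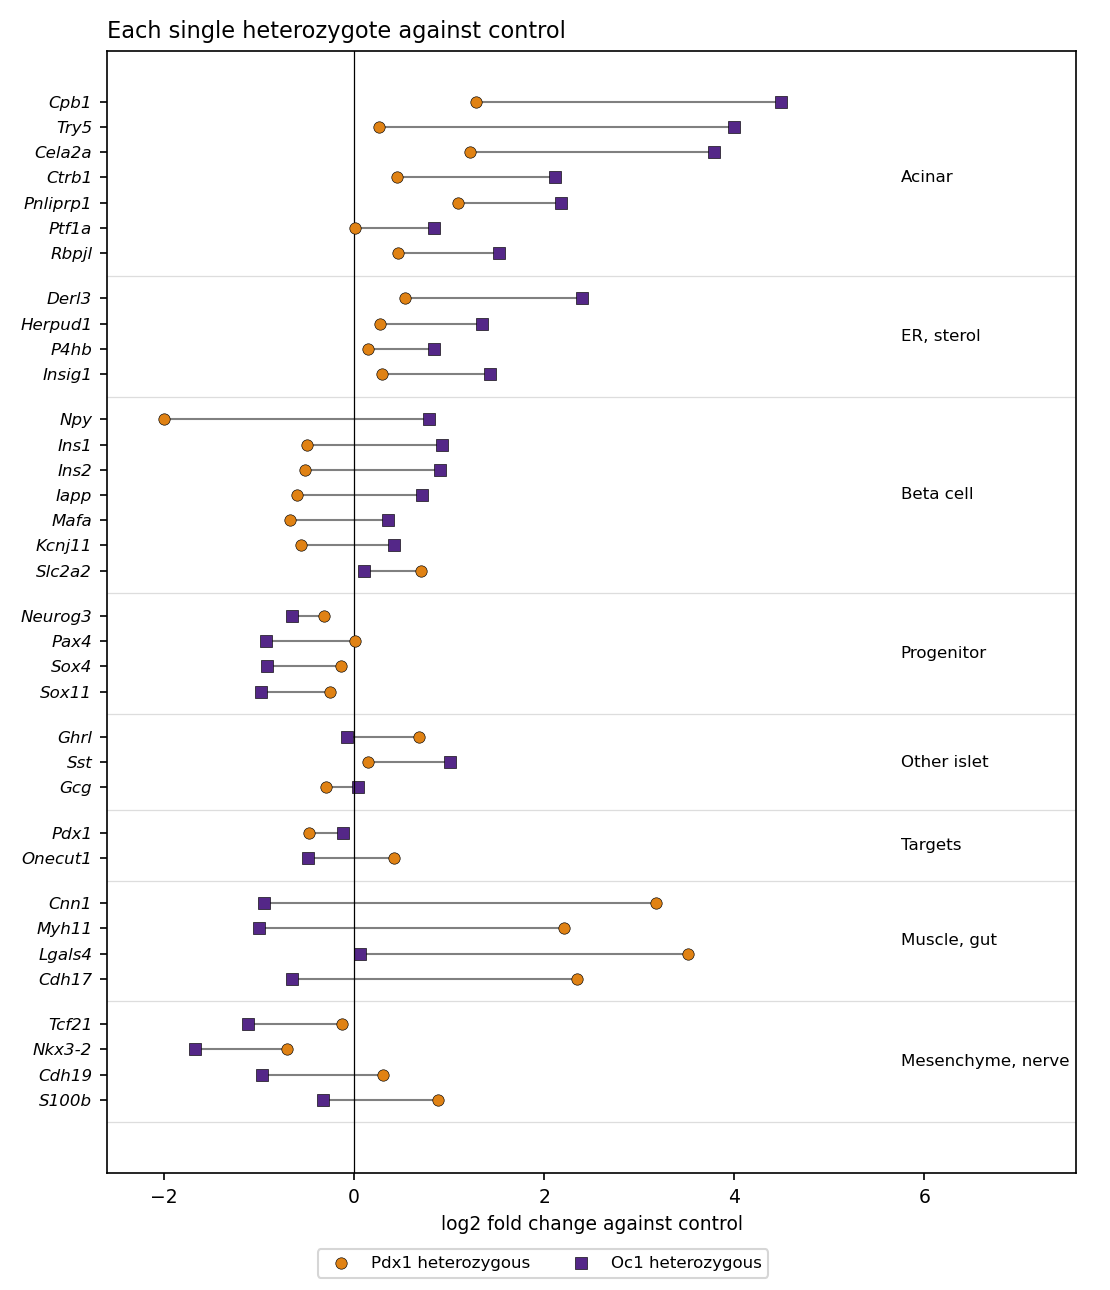
For each gene at left, grouped by the names at right, the circle gives the log2 fold change against control of Pdx1 heterozygotes and the square that of Oc1 heterozygotes, and the line between them is the difference of the contrast. Acinar genes have both symbols at or right of 0 with the square farther out, whereas insulin genes have the circle left of 0 (Ins2 at -0.52) and the square right of it (0.90).

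The other hormone genes did not share 1 direction. Among 14 genes of delta, PP and epsilon cells, 3 were higher and 3 lower (21.4% each, against 2.20% and 2.46% of all genes). Somatostatin (Sst) stood at -0.86 and Pyy, peptide YY, at -0.62, both lower (adjusted p = 0.0165 and 0.00453, edgeR, the authors' deposited table). Ghrelin (Ghrl) was higher at 0.76 (adjusted p = 0.00103, edgeR, the authors' deposited table), at 0.68 in Pdx1 heterozygotes and -0.08 in Oc1 heterozygotes against control. Cartpt, a neuropeptide of islet and nerve cells, was higher at 1.63, and Ghsr, the ghrelin receptor, was lower at -4.01 (adjusted p = 8.67e-05 and 0.0387, edgeR, the authors' deposited table). Ghsr had a mean of only -3.12 log2 CPM in the authors' deposited table, and is listed at a difference of 0 between Pdx1 heterozygotes and control, so its fitted value is no measure of size. Of 14 alpha cell genes, an unadjusted p under 0.05 in edgeR gave 1 higher and 1 lower among those listed. Of the 14, 1 was called higher (7.14%, against 2.20% of all genes) and none lower. That gene was Pou3f4, a POU factor of alpha cells, at 0.90 (adjusted p = 0.00114, edgeR, the authors' deposited table), while glucagon (Gcg) stood at -0.33 and did not pass (adjusted p = 0.379).

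Of 44 pan-endocrine secretory genes, 2 were higher (4.55%, against 2.20% of all genes) and 1 lower (2.27%, against 2.46%). Scg5, the chaperone of a prohormone convertase, stood at 1.46 and the granin Chgb at 0.66 (adjusted p = 0.000216 and 0.00255, edgeR, the authors' deposited table). The granin Scg2 was lower at -0.66 (adjusted p = 0.00331, edgeR, the authors' deposited table). Among 28 genes of pancreatic progenitors and the trunk epithelium, 1 was lower (3.57%, against 2.46% of all genes) and none was higher. That gene was Mecom, a zinc finger factor (-0.64, adjusted p = 0.000156 by edgeR in the authors' deposited table). An unadjusted p under 0.05 in edgeR gave 4 higher and 2 lower among those listed. Of 28 Notch pathway genes, 1 was higher and 1 lower (3.57% each, against 2.20% and 2.46% of all genes). They were Hey2, a Notch target (0.92), and Lfng, which modifies Notch receptors (-0.79) (adjusted p = 0.00658 and 7.1e-07, edgeR, the authors' deposited table).

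Duct and cilium genes, among which Oc1 is known to act, had members in both directions. Of 38 members, 3 were higher (7.89%, against 2.20% of all genes) and 4 lower (10.5%, against 2.46%). Cldn10, a tight junction protein, stood at -1.15, Ggt1, a glutathione-cleaving enzyme, at -1.12 and the mucin Muc1 at -0.98 (adjusted p = 7.93e-09, 2.41e-08 and 1.88e-05, edgeR, the authors' deposited table). These 3 genes are also expressed outside ducts, and stood at 1.09, 1.32 and 1.07 in Oc1 heterozygotes against control in the authors' deposited table. Ambp, a secreted protease inhibitor precursor, was higher at 1.09 and Cldn2, another tight junction protein, at 0.82 (adjusted p = 7.39e-08 and 0.0464, edgeR, the authors' deposited table). Ambp is also in the liver list described below.

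**Figure D4:**
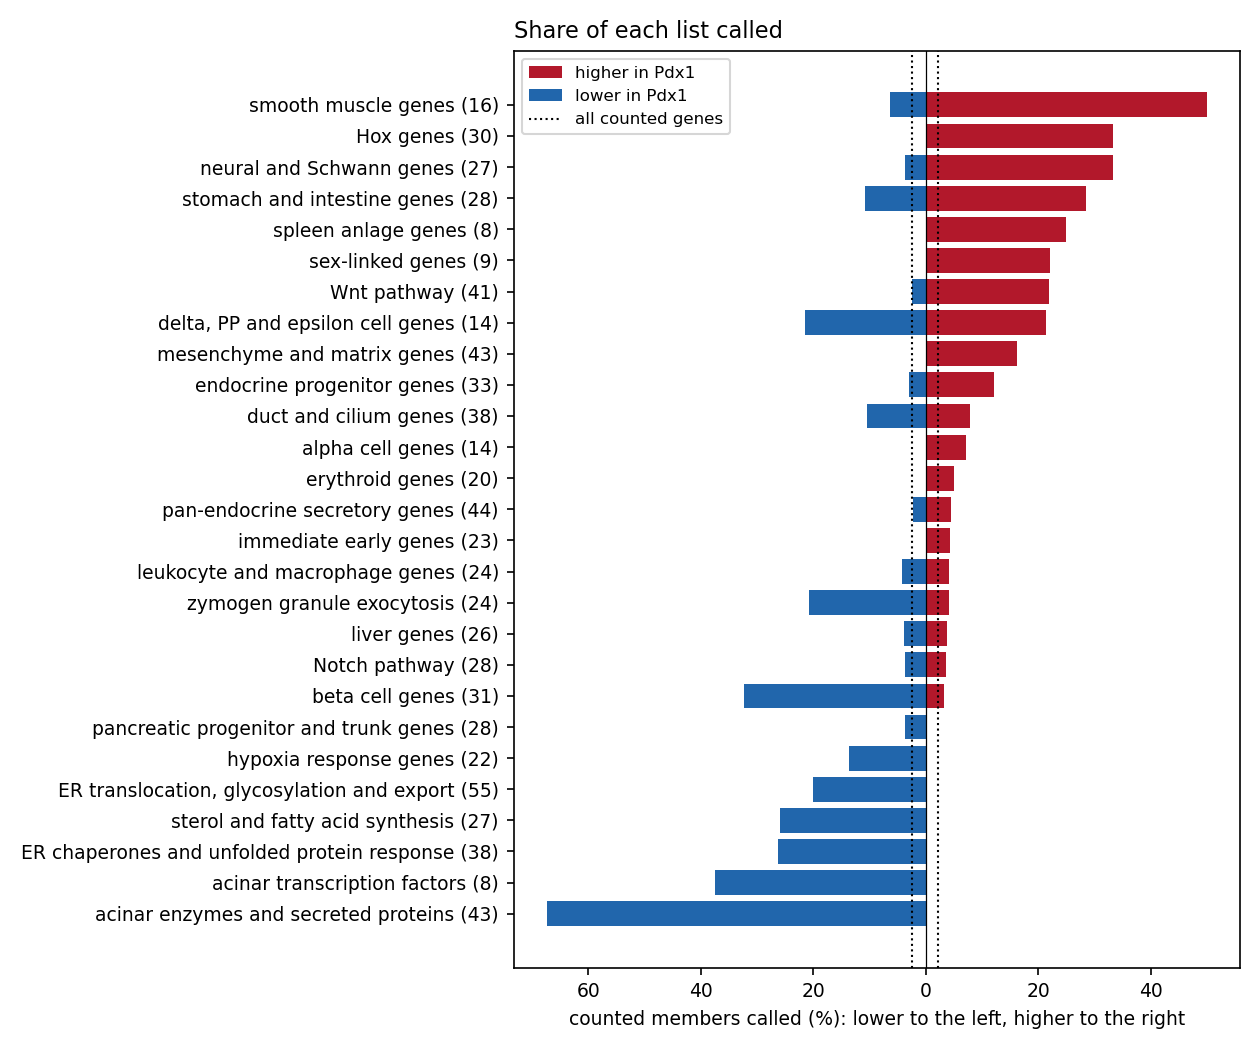
Bars give the percentage of counted members of each list (number in brackets) that were called higher (red, to the right) or lower (blue, to the left) in Pdx1 than in Oc1 heterozygous pancreata, and dotted lines give the share over all counted genes (2.20% and 2.46%). The acinar enzyme list has 67.4% lower and the smooth muscle list has the longest bar to the right, 8 of 16 members. Lists without a call and the list of 4 targeted genes and paralogs are not drawn.

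Outside the epithelium, several smooth muscle genes were higher in Pdx1 than in Oc1 heterozygous pancreata. Of 16 members, 8 were higher (against 2.20% of all genes) and 1 was lower (6.25%, against 2.46%). The other 7 are not listed, and listing itself required a difference in some comparison, so the 9 listed members are a selected part. The median of the 9 was 1.64, at 0.75 in Pdx1 heterozygotes and -0.89 in Oc1 heterozygotes against control in the authors' deposited table. Cnn1, the contractile protein calponin, stood at 4.12 and Myocd, the coactivator that turns on smooth muscle genes, at 3.76 (adjusted p = 0.00144 and 0.001, edgeR, the authors' deposited table). Myh11, smooth muscle myosin, stood at 3.22 and Actg2, enteric smooth muscle actin, at 3.12 (adjusted p = 0.000177 and 0.000242, edgeR, the authors' deposited table). Against control Myh11 stood at 2.21 in Pdx1 heterozygotes and -1.0 in Oc1 heterozygotes, and neither passed (adjusted p = 0.0553 and 0.34, edgeR, the authors' deposited table). Ldb3, a Z-disc protein of striated muscle, was the 1 member lower (-1.65, adjusted p = 6.37e-05, edgeR, the authors' deposited table).

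Stomach and intestine genes had members in both directions. Of 28 members, 8 were higher (28.6%, against 2.20% of all genes) and 3 lower (10.7%, against 2.46%). Lgals4 and Lgals6, closely related intestinal galectins between which reads may be shared, stood at 3.45 and 3.62 (adjusted p = 0.00291 and 0.00307, edgeR, the authors' deposited table). Lgals4 stood at 3.52 in Pdx1 heterozygotes and 0.07 in Oc1 heterozygotes against control (adjusted p = 0.00936 and 1, edgeR, the authors' deposited table). Cdx1, a homeobox factor of the intestine, stood at 3.37 and the intestinal cadherin Cdh17 at 3.0 (adjusted p = 0.0253 and 0.00205, edgeR, the authors' deposited table). Anxa13, an epithelial annexin, and Sostdc1, a BMP and Wnt antagonist, were lower at -1.63 and -1.37 (adjusted p = 1.87e-06 and 0.00114, edgeR, the authors' deposited table). At the mean over all libraries the listed members made up 0.0130% of counted reads for the gut list and 0.0146% for the smooth muscle list. Values of these genes per library were not analysed here, and their part in the calls of other lists was not tested.

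Of 43 mesenchyme and matrix genes, 7 were higher in Pdx1 than in Oc1 heterozygous pancreata (16.3%, against 2.20% of all genes), none was lower and 36 did not pass, and an unadjusted p under 0.05 in edgeR gave 9 higher and 1 lower. The 12 listed members had medians of -0.12 in Pdx1 heterozygotes and -0.72 in Oc1 heterozygotes against control in the authors' deposited table. Foxf2 and Foxf1a, forkhead factors of gut mesenchyme, stood at 2.50 and 1.30 (adjusted p = 0.0468 and 0.0422, edgeR, the authors' deposited table). Foxf2 had a mean of only -0.70 log2 CPM. Against control it stood at 3.09 in Pdx1 heterozygotes and 0.59 in Oc1 heterozygotes, and neither passed (adjusted p = 0.0625 and 0.835, edgeR, the authors' deposited table). Tcf21, a factor of visceral mesenchyme, stood at 0.99 and Nkx3-2, a factor of splanchnic mesenchyme and spleen, at 0.97 (adjusted p = 5.69e-05 and 0.0223, edgeR, the authors' deposited table). Against control Tcf21 stood at -0.13 in Pdx1 heterozygotes and -1.11 in Oc1 heterozygotes (adjusted p = 1 and 1.68e-06, edgeR, the authors' deposited table). Pdgfra, the listed member with the most reads, stood at 0.58 with adjusted p = 0.00285 by edgeR in the authors' deposited table, below the required fold. Of 8 spleen anlage genes, 2 were higher (against 2.20% of all genes) and none lower (against 2.46%). With an unadjusted p under 0.05 in edgeR, 3 were higher and 0 lower. The 2 called genes were Nkx3-2, which is in both lists, and Tlx2, a homeobox gene (1.45, adjusted p = 0.0221 by edgeR in the authors' deposited table). Tlx2 had a mean of only 0.05 log2 CPM.

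Of 30 Hox genes, 10 were higher (33.3%, against 2.20% of all genes) and none lower. An unadjusted p under 0.05 in edgeR gave 12 higher and 0 lower among those listed. Hoxb3, the listed member with the most reads, stood at 0.71 (adjusted p = 1.27e-06, edgeR, the authors' deposited table), at 0.04 in Pdx1 heterozygotes and -0.66 in Oc1 heterozygotes against control. Hoxd3 stood at 1.52 (adjusted p = 0.0232, edgeR, the authors' deposited table). The posterior genes Hoxd10, Hoxa10 and Hoxa9 had much larger fitted values, 5.95, 5.35 and 3.61, at means of -2.29, -1.61 and -2.07 log2 CPM (adjusted p = 0.0169, 0.0201 and 0.0335, edgeR, the authors' deposited table). At these levels a fitted fold change rests on few reads and is not a bound.

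Of 41 Wnt pathway genes, 9 were higher (against 2.20% of all genes) and 1 lower (2.44%, against 2.46%). The receptor Fzd10 stood at 2.13 and the transcription factor Lef1 at 1.20 (adjusted p = 1.75e-05 and 0.0354, edgeR, the authors' deposited table). Axin2, a widely used target of the pathway, stood at 0.81 (adjusted p = 5.77e-07, edgeR, the authors' deposited table), at 0.06 in Pdx1 heterozygotes and -0.75 in Oc1 heterozygotes against control. Lgr5, a receptor for R-spondins, stood at 0.92 (adjusted p = 0.00202, edgeR, the authors' deposited table). The secreted antagonists Sfrp5 and Sfrp1 were also higher, at 1.32 and 0.64, and the antagonist Notum was lower at -0.69 (adjusted p = 0.00742, 2.01e-05 and 0.00846, edgeR, the authors' deposited table).

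Of 27 neural and Schwann cell genes, 9 were higher (33.3%, against 2.20% of all genes) and 1 lower (3.70%, against 2.46%). Their listed median was 0.80, at -0.15 in Pdx1 heterozygotes and -0.89 in Oc1 heterozygotes against control in the authors' deposited table. The glial genes Cdh19 and S100b stood at 1.28 and 1.21 (adjusted p = 0.0221 and 0.000573, edgeR, the authors' deposited table). Ret, a receptor of enteric neural cells that other cells also express, was lower at -0.77 (adjusted p = 0.00166, edgeR, the authors' deposited table).

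The remaining cell type lists held few calls. None of 19 endothelial genes was called. An unadjusted p under 0.05 in edgeR gave 1 higher and 0 lower among those listed. The listed 1, Vwf, stood at 0.63 (adjusted p = 0.0995, edgeR, the authors' deposited table). None of 9 mesothelium genes was called, with 0 at an unadjusted p under 0.05 in edgeR among those listed, and Wt1 stood at 0.18 (adjusted p = 0.596, edgeR, the authors' deposited table). None of 35 cell cycle genes was listed, so none was called by edgeR and p-values for them were not analysed here. Of 24 leukocyte genes, 1 was lower and 1 higher (4.17% each, against 2.46% and 2.20% of all genes). They were the complement gene C1qa (-1.59) and the neutrophil protein S100a9 (1.65) (adjusted p = 1.17e-10 and 0.0481, edgeR, the authors' deposited table). Of 20 erythroid genes, 1 was higher (5.00%, against 2.20% of all genes) and none lower. It was the embryonic globin Hbb-y (1.74, adjusted p = 0.013 by edgeR in the authors' deposited table). An unadjusted p under 0.05 in edgeR gave 2 higher and 0 lower among those listed. Of 26 liver genes, 1 was higher and 1 lower (3.85% each, against 2.20% and 2.46% of all genes). They were Ambp, higher, and prothrombin (F2), lower (-1.14, adjusted p = 0.0141 by edgeR in the authors' deposited table). The vitamin D binding protein Gc stood at -0.50 (adjusted p = 0.00143, edgeR), under the fold minimum.

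Of 22 hypoxia response genes, an unadjusted p under 0.05 in edgeR gave 3 lower and 0 higher among those listed. Of the 22, 3 were called lower (13.6%, against 2.46% of all genes) and none higher. They were Egln3, an oxygen-sensing hydroxylase (-1.37), Car9, a carbonic anhydrase (-0.79), and Ndrg1 (-0.71) (adjusted p = 2.73e-05, 0.000406 and 0.00376, edgeR, the authors' deposited table). Of 23 immediate early genes, 1 was higher (4.35%, against 2.20% of all genes) and none lower. It was the phosphatase gene Dusp2 (0.90, adjusted p = 0.00748 by edgeR in the authors' deposited table). The unadjusted counts over listed members in edgeR were 1 and 0. Of 9 sex-linked genes, 2 were higher (22.2%, against 2.20% of all genes) and none lower, with 2 and 0 at an unadjusted p under 0.05 in edgeR. Xist, the RNA that silences the inactive X chromosome, stood at 8.32 (adjusted p = 0.00543, edgeR, the authors' deposited table), at -0.45 in Pdx1 heterozygotes and -8.78 in Oc1 heterozygotes against control. The overlapping antisense gene Tsix stood at 6.98 (adjusted p = 5.59e-07, edgeR, the authors' deposited table), and reads of both cannot be told apart without strand. The Y-linked Ddx3y did not pass (-1.06, adjusted p = 0.581, edgeR, the authors' deposited table), at 1.58 in Pdx1 heterozygotes and 2.64 in Oc1 heterozygotes against control (adjusted p = 0.949 and 0.037). The labels give no sex of the embryos. The genotypes thus also differed in the level of Xist, and its part in the other differences was not tested.

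Among called genes with a mean of at least 1 log2 CPM, the 10 highest and 10 lowest values were mostly members of the lists above. The others among the highest were Kap, a kidney androgen-regulated protein, at 7.94, the acute phase protein Crp at 2.93 and the cell adhesion molecule Ceacam1 at 2.68 (adjusted p = 0.0215, 2.54e-11 and 0.0093, edgeR, the authors' deposited table). Crp stood at 0.32 in Pdx1 heterozygotes and -2.62 in Oc1 heterozygotes against control (adjusted p = 1 and 1.16e-09, edgeR, the authors' deposited table). Among the lowest were Tdh, a threonine dehydrogenase, at -2.68 and Psd2, an exchange factor for a small GTPase, at -2.55 (adjusted p = 1.25e-05 and 3.16e-13, edgeR, the authors' deposited table). Psd2 stood at -0.55 in Pdx1 heterozygotes and 2.0 in Oc1 heterozygotes against control (adjusted p = 0.889 and 4.93e-09, edgeR, the authors' deposited table).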

How the data were processed

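RNA of pancreata of mouse embryos at embryonic day 15.5 was sequenced in 16 libraries, 4 Pdx1 heterozygous, 3 Oc1 heterozygous, 5 double heterozygous and 4 control. Per the labels' protocols, each pancreas was isolated into Trizol, and a TruSeq kit was used for the libraries. The submitters' processing notes name CASAVA 1.8.2, edgeR and build mm9, while the aligner, strand setting and edgeR version are not given in the sources used here.

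The deposited count table holds raw read counts, and its 16 columns carry sequencing run names (flow cell, lane, index) that match no sample's labels. These 16 per-library columns were not used, and only its 22869 gene symbols were read. No refit, value per library, depth, spread or repeat within 1 flow cell was therefore made, and no interval for counting error can be given. Expression values were therefore taken from the authors' table of comparisons. For each of 5 comparisons it holds, per the file headers, the log2 fold change and the p-value with its adjusted form, beside the level as log2 CPM, as the authors computed them. It lists 2283 genes, each with adjusted p under 0.1 and at least 1.5-fold in some comparison (largest of the smallest adjusted p 0.0999, smallest fold 1.5007). In 12 rows a comparison is empty, in 8 of them later values stand displaced and were moved back, and 4 rows have no value for this contrast. In 3 rows the symbol is a number; these were counted and not named.

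The heading of the block used for this contrast reads double against Oc1 heterozygote, but in 2279 of 2279 rows its values were Pdx1 less Oc1 heterozygote (tolerance 1e-06). The same arithmetic would hold with headings 1 and 3 exchanged. The variance implied by fold change and p-value (mean log2 CPM above 4, p under 0.9) was, relative to the first block, 1.15, 0.905, 0.897 and 1.14 in the other 4. Group sizes give 1.17, 0.900, 0.900 and 1.17 with headings as printed and 1.30, 1.11, 1.00 and 1.19 with them exchanged, so the headings of the first 3 blocks were kept.

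Genes were called at adjusted p under 0.05 and 1.5-fold. The comparison, the 31 lists (785 genes) and the alternatives were chosen with earlier results of these data known, so no p adjusted over a list alone is given. Named were the targeted genes, in each list the 4 called members with the largest change, the listed member with the most reads and up to 2 called members against the majority, and the 10 highest and 10 lowest called genes with a mean of at least 1 log2 CPM. Ctrb1, Cpa1 in the acinar list, Amy2b, Prss2, Creld2, Iapp, Mafa, Kcnj11, Neurog3, Neurod1, Axin2, Ddx3y and the genes of the closing section were added after their values were seen, as were the motifs CACCTG and the full ER stress element. Promoters are from RefSeq (GRCm38.p6), matched by symbol; since this is not the build of the counts, its coordinates locate the printed sequences only. Some genes that the rule names are not reported here. The calling step was tested on simulated data. Python 3.11.15, numpy 2.4.6, pandas 2.3.3, scipy 1.17.1 and matplotlib 3.10.9 were used.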

Additional observations from a re-analysis of the deposited data

How the results depend on the processing

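Of 504 genes higher and 562 lower, a fold minimum of 2 left 222 and 240. An adjusted p under 0.01 left 293 of the higher genes, and Bonferroni adjustment over all counted genes left 93 higher and 204 lower. With a fold minimum of 2, the members lower were 4 of ER chaperones, 3 of ER translocation, 3 of zymogen exocytosis and 1 of sterol synthesis, and those higher were 2 of mesenchyme, 4 of neural, 3 of Wnt and 5 of Hox genes. With adjusted p under 0.01, 4 mesenchyme, 5 neural, 5 stomach and intestine and 4 Hox genes were higher. With a mean of at least 1 log2 CPM, 4 stomach and intestine and 5 Hox genes were higher. Members lower numbered 26 to 29 for acinar enzymes and 7 to 11 for beta cell genes under the settings of adjusted p, fold and level; Bonferroni was run on the totals and named genes. Of 115 named genes, 25 no longer passed at adjusted p under 0.01, 36 at a fold of 2 and 67 under Bonferroni. These settings change thresholds and filters on fixed fold changes, so they say nothing of whether a direction is stable.

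No paired analysis was possible because the columns carry no replicate numbers. Leaving out single libraries, a replicate block, DESeq2, other size factors, a filter on low counts and a repeat within 1 flow cell were not run, since no count column is tied to a sample. Fold changes of genes with a mean under 1 log2 CPM rest on few reads.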

Other observations

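Several genes outside the lists had large values at low levels, and all were chosen after their values were seen. The posterior Hox genes Hoxd13, Hoxb13 and Hoxd12 stood at 9.05, 8.86 and 7.35 (adjusted p = 0.00276, 0.00537 and 0.0177, edgeR, the authors' deposited table). Their means were -0.15, -0.32 and -1.54 log2 CPM in the authors' deposited table. Clca3, a secreted protein of goblet cells, and Atoh1, the factor of intestinal secretory cells, stood at 8.84 and 6.82 (adjusted p = 0.00297 and 0.0104, edgeR, the authors' deposited table). Hoxd12, Clca3 and Atoh1 are listed at a difference of 0 between Oc1 heterozygotes and control in the authors' deposited table, so their fitted values are no measure of size. Ihh, a hedgehog ligand of gut epithelium, stood at 3.99, and Gli1, a target of hedgehog signalling, at 1.18 (adjusted p = 0.0173 and 0.00025, edgeR, the authors' deposited table). Gli1 stood at 1.02 in Pdx1 heterozygotes and -0.16 in Oc1 heterozygotes against control (adjusted p = 0.0102 and 0.849, edgeR, the authors' deposited table).

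Some genes with low p-values belong to none of the lists. Rest, a repressor of neuronal genes, was higher in Pdx1 than in Oc1 heterozygous pancreata, at 0.97 (adjusted p = 5.15e-11, edgeR, the authors' deposited table). It stood at -0.19 in Pdx1 heterozygotes and -1.16 in Oc1 heterozygotes against control (adjusted p = 1 and 7.65e-16, edgeR, the authors' deposited table). Cwc22, a splicing factor, stood at 2.07 and Chrdl1, a BMP antagonist, at 1.44 (adjusted p = 7.34e-10 and 1.48e-10, edgeR, the authors' deposited table). Col19a1, a collagen, was lower at -3.29 (adjusted p = 1.3e-11, edgeR, the authors' deposited table), at -2.17 in Pdx1 heterozygotes and 1.12 in Oc1 heterozygotes against control (adjusted p = 0.000285 and 0.0239). The caspase gene Casp9 stood at -1.56 and the bile acid receptor gene Nr1h4 at -1.64 (adjusted p = 5.9e-11 and 4.48e-11, edgeR, the authors' deposited table).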
